A study of Mus musculus with 18 samples.

Results

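*Csf1r*, *Spi1*, *Cebpa*, *Cebpb*, *Cebpd*, *Runx1* and *Mitf* encode the receptor for macrophage colony-stimulating factor and 6 transcription factors of the myeloid lineage. They were taken by symbol from the deposited gene table, where each symbol matched 1 gene, which makes 7 of 56748 genes. PU.1, the product of *Spi1*, is an ETS factor that sets up macrophage enhancers together with C/EBP and RUNX proteins, and the *Csf1r* gene is a classic target of these factors. C/EBPα acts in commitment to the myeloid lineage and restrains cell division, whereas C/EBPβ and C/EBPδ are known as inducible members of the family that bind the same motif and drive acute inflammatory genes. RUNX1 is the DNA-binding subunit of core binding factor, MITF is a helix-loop-helix factor that works with PU.1 in osteoclasts, and CSF1R is the tyrosine kinase through which CSF1 and IL-34 keep macrophages alive.

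The study asked how tert-butylhydroquinone (TBHQ), an activator of the antioxidant factor Nrf2, alters the response of macrophages to bacterial and viral stimuli. Poly(A) RNA of RAW 264.7 cells, 1 established macrophage line from a mouse tumor, gave 18 sequenced libraries, with 3 biological replicates by the study's account in each of 6 conditions. Control cells received no further treatment after plating, and TBHQ cells received 5 µM TBHQ for 4 h. LPS cells received 0.1 µg/mL lipopolysaccharide, a ligand of TLR4, for 12 h, and PIC cells received 20 µg/mL Poly(I:C), a double-stranded RNA mimic sensed by TLR3, for 12 h. LPS + TBHQ and PIC + TBHQ cells received TBHQ for 4 h and then the stimulus for 12 h at the same doses. TBHQ was dissolved in DMSO, and the study describes no DMSO control for the sequenced cells. An effect of TBHQ and one of its solvent can therefore not be told apart. By the study's timeline the control cells belonged to the 12 h design, while TBHQ alone was harvested after 4 h and the combined treatments after both exposures, so that time and treatment cannot be told apart between these groups. TBHQ alone was not tested against the stimulated groups, and orders of levels over all conditions carry this difference in time.

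Each library held between 14423390 and 18851626 counts, with a median of 15742337. *Csf1r* averaged 11382 counts per library and *Spi1* 6143, while *Cebpa* averaged 122 and went down to 32 counts in 1 PIC library, so that its values carry the most counting error of the 7. The cells carried macrophage markers, with 8 of 8 listed genes found and a summed level between 4515 and 5864 FPKM (fragments scaled to transcript length and library size) in each library. *Lyz2* led them at a mean of 4021 FPKM, while *Mertk* had 14 counts in all libraries together. The sum averaged 5696 FPKM in control, 5110 in TBHQ, 4736 in LPS, 4580 in PIC, 5474 in LPS + TBHQ and 5122 in PIC + TBHQ. Most of it is *Lyz2*, and not every marker fell with it: *Adgre1* (11.5 to 70.7 FPKM over libraries) rose with LPS and with PIC. The part of the sum in the *Csf1r* values was not tested. Among 6 neutrophil markers, *S100a9* and *Ly6g* had no count, and the sum, nearly all of it *S100a8*, ran from 0.282 to 6.01 FPKM per library. The neutrophil sum averaged 0.920 FPKM in control, 0.476 in TBHQ, 3.27 in LPS, 5.59 in PIC, 3.53 in LPS + TBHQ and 3.91 in PIC + TBHQ, and its part in the differences between conditions was not tested. Marker sums of dendritic, B, T, fibroblast, epithelial and melanocyte cells were each at most 0.377 FPKM in any library, and the melanocyte genes *Tyr*, *Tyrp1* and *Dct*, which MITF drives in that cell type, had no count, while *Pmel* had 47 counts and *Mlana* 2 in all libraries together.

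Levels are the deposited FPKM, which carry a constant for each library beyond gene length and total counts. It was 0.943 to 0.954 in control and TBHQ libraries, 0.992 to 0.999 in LPS + TBHQ, 1.005 to 1.015 in LPS, 1.05 to 1.06 in PIC + TBHQ and 1.11 to 1.12 in PIC. FPKM recomputed from total counts leave it out, and where this changes whether libraries of compared conditions overlap, both are given. *Csf1r* and *Spi1* were the most abundant of the 7 transcripts in control cells, with 154 ± 4.58 FPKM and 139 ± 3.54 FPKM (SD, n = 3). *Cebpb* followed at 50.1 ± 1.99 FPKM, then *Cebpd* at 9.64 ± 0.0598 and *Mitf* at 9.03 ± 0.455. *Runx1*, at 3.40 ± 0.0654 FPKM, and *Cebpa*, at 3.22 ± 0.296, overlapped at the bottom of the order. After PIC the order was *Spi1*, then *Csf1r* and *Cebpb* with overlapping libraries, then *Mitf*, *Cebpd*, *Runx1* and *Cebpa*. LPS gave the same order except that *Cebpd* stood above *Mitf*. *Csf1r* kept the first place in TBHQ cells, where *Cebpa* stood above *Runx1*, and *Spi1* held it in both combined treatments. In PIC + TBHQ cells the libraries of *Cebpb* and *Csf1r* overlapped, at 118 ± 12.6 and 117 ± 4.67 FPKM.

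**Figure D1:**
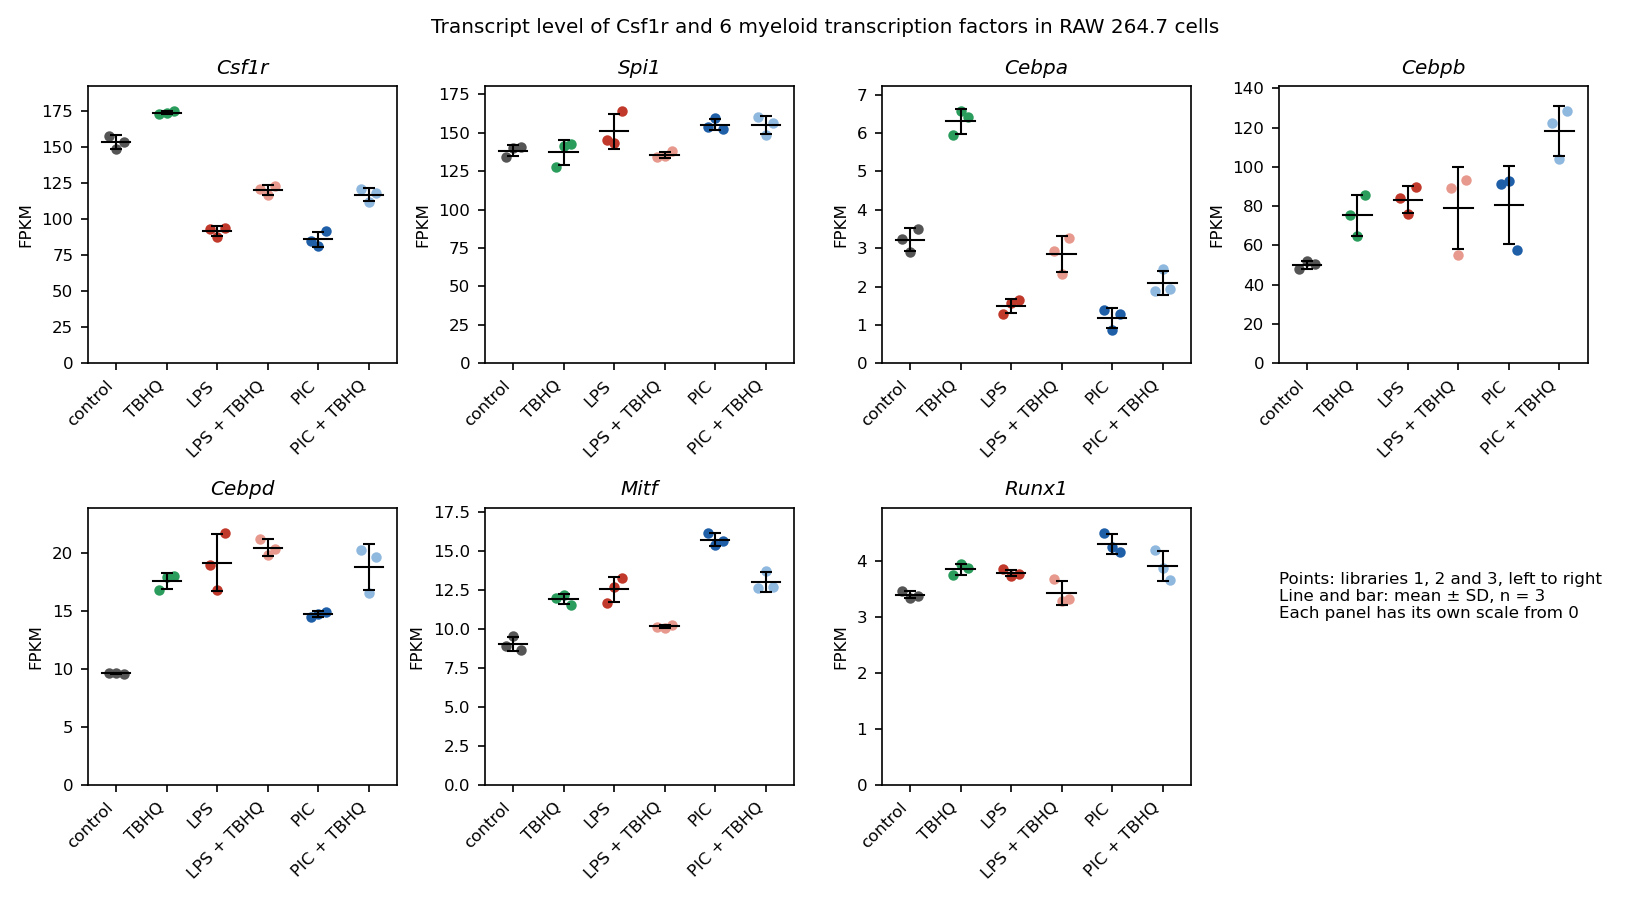
Transcript level (FPKM) of *Csf1r* and the 6 factors in each of the 18 libraries, 1 panel per gene with its own scale from 0; points are libraries 1, 2 and 3 and lines and bars the mean ± SD (n = 3). *Csf1r* lies between 81.5 and 93.8 FPKM in the LPS and PIC libraries and between 149 and 175 FPKM in the control and TBHQ libraries.

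Differences between conditions were tested with edgeR on the counts of 13691 genes, all 7 members among them, and a gene was called at a false discovery rate (FDR) below 0.05. Log2 differences are relative to the bulk of genes (TMM scaling), and their SE comes from the spread of the 3 replicates in each group. Comparisons with control share the same 3 control libraries and are not independent of each other. When libraries were scaled by their total counts instead (total library size), the median of all genes shifted by −0.22 in PIC against control, by −0.15 in PIC + TBHQ against control and by −0.13 in PIC against LPS, so that member values close to 0 depend on the scaling. In these bulk libraries, fewer cells carrying a transcript and less of it per cell cannot be told apart.

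Both stimuli moved all 7 members away from control. *Csf1r* and *Cebpa* fell and *Cebpb*, *Cebpd*, *Mitf*, *Runx1* and *Spi1* rose, although the rises of *Spi1* and *Runx1* were small and depended on the scaling. In LPS against control, 5 of 7 members were called higher against 24.0% of all genes tested, and 2 were called lower against 24.1%. PIC against control gave the same counts, 5 higher against 28.6% and 2 lower against 30.1%. No member passed the study's own threshold of FDR below 0.01 and a log2 difference above 2 in size, which 1.64% of genes passed for LPS and 3.57% for PIC. Over all genes, LPS gave 3283 higher and 3306 lower calls, or 2454 and 4558 with total library size, and PIC gave 3917 and 4120, or 2379 and 6635.

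*Csf1r*, the receptor that passes on the CSF1 survival signal, had 158, 149 and 154 FPKM in the control libraries. It had 93.5, 87.8 and 93.8 FPKM after LPS and 85.0, 81.5 and 91.7 FPKM after PIC. The lowest control library stood above the highest stimulated one. The LPS and PIC libraries overlapped in deposited FPKM but not in recomputed FPKM (87.4 to 92.5 and 73.1 to 82.4). *Csf1r* fell by 0.75 on the log2 scale with LPS (SE 0.04, FDR 1.03e-18), to 59.4% of control. It fell by 0.85 with PIC (SE 0.05, FDR 1.33e-20), to 55.4% of control.

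*Spi1*, which encodes PU.1, had 134, 140.3 and 141 FPKM in control, 146, 143 and 164 FPKM after LPS, and 154, 159.5 and 153 FPKM after PIC. In deposited FPKM every stimulated library was above every control library. Recomputed FPKM overlapped, at 141.3 to 149.3 in control, 142.7 to 161.8 in LPS and 137.0 to 143.0 in PIC, with the PIC mean below control. LPS library 3 stood apart from the other two of its group. The log2 difference was 0.12 for LPS (SE 0.06, FDR 0.0227) and 0.15 for PIC (SE 0.03, FDR 0.00315), a rise of 1.08-fold and 1.11-fold. These rises were the smallest of the called member changes in size against control with either stimulus. With total library size they were 0.03 for LPS (FDR 0.594) and −0.07 for PIC (FDR 0.142), and the LPS call was also lost without control library 1 (0.10, FDR 0.106) or LPS library 3 (0.07, FDR 0.217) and with limma on log2(FPKM + 0.1) (FDR 0.0501).

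*Cebpa*, the family member tied to commitment and cell cycle arrest, had 3.24, 2.91 and 3.50 FPKM in control. LPS libraries had 1.28, 1.56 and 1.64 FPKM, and PIC libraries 1.39, 0.874 and 1.28 FPKM. All 6 stimulated libraries were below all 3 control libraries, with the lowest value in PIC library 2. *Cebpa* fell by 1.11 on the log2 scale with LPS (SE 0.13, FDR 4.06e-07) and by 1.46 with PIC (SE 0.21, FDR 1.96e-09), to 46.3% and 36.4% of control. In limma on log2(FPKM + 1), where the added constant weighs on a low transcript, the PIC difference was −0.96 (FDR 1.18e-06). Its raw counts were 131, 125 and 156 in control, 48, 59 and 62 in LPS, and 50, 32 and 57 in PIC.

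*Cebpb*, an inducible activator of acute inflammatory genes, had 48.0, 52.0 and 50.4 FPKM in control. It had 84.4, 76.0 and 89.7 FPKM after LPS and 91.3, 92.8 and 57.9 FPKM after PIC. PIC library 3 stood far below the other two PIC libraries. It was above control in deposited FPKM and inside the control range in recomputed FPKM (51.99, with 50.51 to 54.97 in control). *Cebpb* rose by 0.73 on the log2 scale with LPS (SE 0.08, FDR 2.44e-05) and by 0.66 with PIC (SE 0.23, FDR 6.41e-05). Without PIC library 3 the PIC difference was 0.87 (FDR 8.89e-08).

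*Cebpd*, which encodes the inducible C/EBPδ, was tight within groups, with 9.67, 9.68 and 9.57 FPKM in control and 14.5, 14.8 and 14.98 FPKM after PIC. LPS libraries were higher and more spread, with 19.03, 16.8 and 21.8 FPKM. The 3 groups did not overlap. *Cebpd* rose 1.98-fold with LPS (log2 0.99, SE 0.11, FDR 3.11e-14) and 1.51-fold with PIC (log2 0.60, SE 0.01, FDR 7.54e-09), or by 0.38 on the log2 scale (FDR 1.82e-05) for PIC with total library size.

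*Runx1*, the core binding factor subunit, had 3.47, 3.35 and 3.38 FPKM in control, 3.86, 3.74 and 3.77 FPKM after LPS and 4.51, 4.26 and 4.16 FPKM after PIC. The groups did not overlap in deposited FPKM, with PIC highest, but LPS (3.72 to 3.80) and PIC (3.74 to 4.05) did in recomputed FPKM. *Runx1* rose by 0.15 on the log2 scale with LPS (SE 0.02, FDR 0.0366) and by 0.32 with PIC (SE 0.04, FDR 1.2e-05). With total library size neither was called, at 0.06 for LPS (FDR 0.405) and 0.11 for PIC (FDR 0.109). The LPS call was also lost in DESeq2 (FDR 0.065), with no filter on low counts (FDR 0.0901), and without control library 2 (0.14, FDR 0.0973), control library 3 (0.15, FDR 0.0817) or LPS library 1 (0.14, FDR 0.0907).

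*Mitf*, partner of PU.1 at osteoclast genes, had 8.94, 9.53 and 8.63 FPKM in control, 11.7, 12.7 and 13.3 FPKM after LPS and 16.2, 15.4 and 15.7 FPKM after PIC. No library of 1 group reached the range of another. *Mitf* rose 1.38-fold with LPS (log2 0.47, SE 0.07, FDR 1.69e-09) and 1.72-fold with PIC (log2 0.79, SE 0.05, FDR 9.68e-16), the widest PIC rise of the 7 members with all libraries in, although *Cebpb* rose by 0.87 without PIC library 3.

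**Figure D2:**
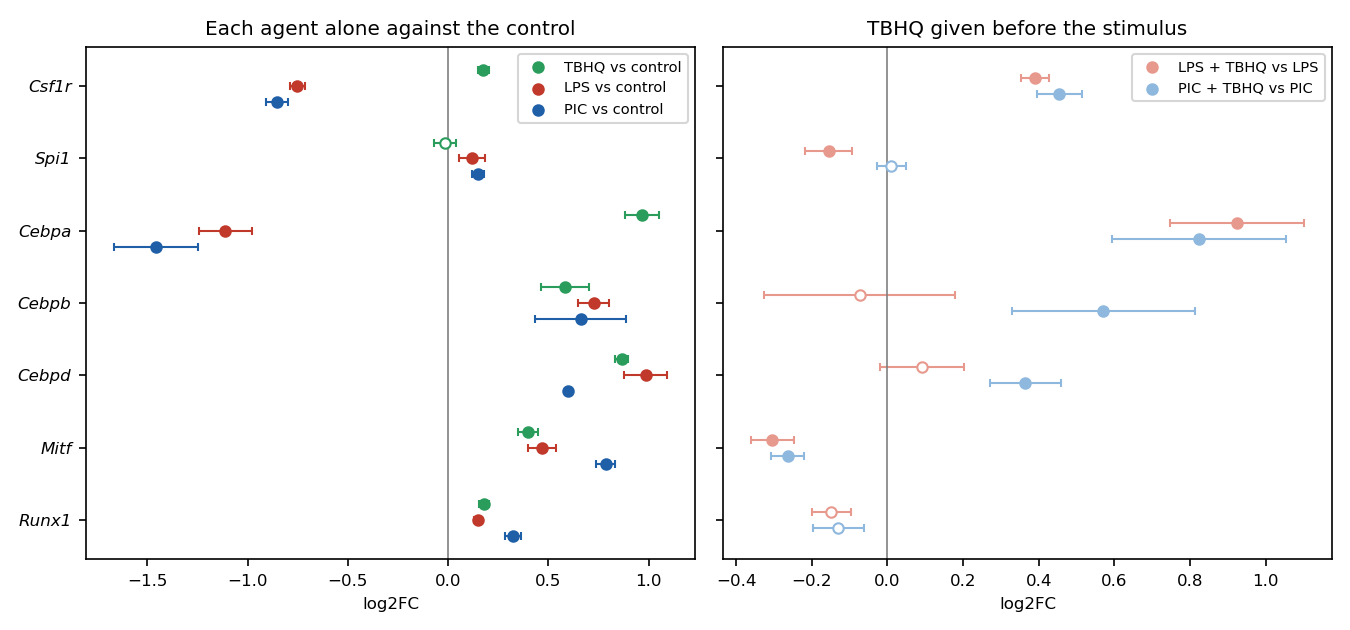
Log2 difference of each of the 7 genes with TBHQ, LPS and PIC against control and with each combined treatment against its stimulus alone, with bars for the SE from 3 replicates per group; filled points are called at FDR below 0.05, open points are not, and horizontal scales differ between panels. With LPS and with PIC against control *Cebpa* (−1.11 and −1.46) and *Csf1r* (−0.75 and −0.85) lie left of 0, and of the points right of 0 *Spi1* with PIC moves to −0.07 under scaling by total library size.

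With TBHQ alone for 4 h, 6 of the 7 members rose. Against 14.2% of genes called higher, 6 members were called higher, and 0 were called lower by edgeR against 14.8% of genes (0 as well at an unadjusted p under 0.05, and 0 in DESeq2 and limma). *Cebpa* had 5.94, 6.57 and 6.41 FPKM, all far above control. It rose 1.95-fold (log2 0.97, SE 0.09, FDR 3.52e-07), opposite to its fall with LPS and PIC. *Cebpd* had 16.8, 17.9 and 18.1 FPKM and rose 1.82-fold (log2 0.87, SE 0.03, FDR 5.19e-12). The 3 TBHQ libraries of *Cebpb*, at 75.6, 64.6 and 85.6 FPKM, were spread but clear of control, and the gene rose by 0.58 on the log2 scale (SE 0.12, FDR 0.000891).

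*Mitf* had 12.0, 12.2 and 11.6 FPKM with TBHQ and rose by 0.40 (SE 0.05, FDR 1.66e-07). *Csf1r* had 173, 174 and 175 FPKM and rose by 0.18 (SE 0.03, FDR 0.000329). *Runx1*, at 3.75, 3.94 and 3.87 FPKM, rose by 0.18 (SE 0.03, FDR 0.0197). That call was lost without control library 2 (0.17, FDR 0.0664), control library 3 (0.17, FDR 0.0583), TBHQ library 2 (0.16, FDR 0.0767) or TBHQ library 3 (0.18, FDR 0.0501), and with no filter on low counts (FDR 0.0512). *Spi1* had 128, 141 and 143 FPKM, which overlapped control, and its log2 difference of −0.01 (SE 0.05, FDR 0.84) was not called.

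TBHQ before the stimulus shifted *Csf1r* and *Cebpa* back toward control and lowered *Mitf*, with either stimulus. Against LPS alone, LPS + TBHQ gave 2 of 7 members higher against 11.7% of all genes and 2 lower against 12.2%. Against PIC alone, PIC + TBHQ gave 4 higher against 15.8% and 1 lower against 15.5%. Over all genes the first comparison had 1601 higher and 1673 lower calls, or 2061 and 1401 with total library size, and the second 2167 and 2118, or 3398 and 1436.

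*Csf1r* had 121, 117 and 123 FPKM in LPS + TBHQ and 121, 112 and 118 FPKM in PIC + TBHQ. Each was above all libraries of its stimulus alone and below all control libraries. It rose by 0.39 against LPS (SE 0.04, FDR 2.26e-10) and by 0.45 against PIC (SE 0.06, FDR 4.92e-12). It was still lower than control by a log2 difference of −0.36 in LPS + TBHQ (SE 0.03, FDR 3.56e-10), 77.8% of control, and −0.40 in PIC + TBHQ (SE 0.04, FDR 2.17e-11), 75.9% of control.

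*Cebpa* had 2.93, 2.33 and 3.26 FPKM in LPS + TBHQ, above every LPS library and overlapping control. With PIC + TBHQ it had 1.88, 2.46 and 1.94 FPKM, above every PIC library and below every control library. *Cebpa* rose 1.90-fold against LPS (log2 0.92, SE 0.18, FDR 3.61e-05) and 1.77-fold against PIC (log2 0.82, SE 0.23, FDR 0.000443, or 0.51 with FDR 0.00191 in limma on log2(FPKM + 1)). Against control the log2 difference was −0.19 in LPS + TBHQ (SE 0.16, FDR 0.304), which was not called and ran from −0.30 to −0.064 with single libraries left out, and −0.63 in PIC + TBHQ (SE 0.14, FDR 0.000562).

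*Mitf* had 10.2, 10.1 and 10.3 FPKM in LPS + TBHQ and 12.6, 13.7 and 12.7 FPKM in PIC + TBHQ. Both groups were below their stimulus alone, although TBHQ alone was above control. *Mitf* fell by 0.30 against LPS (SE 0.06, FDR 1.75e-05) and by 0.26 against PIC (SE 0.04, FDR 6.5e-05). It was higher than control in both, by 0.16 with LPS + TBHQ (SE 0.04, FDR 0.0104) and 0.52 with PIC + TBHQ (SE 0.06, FDR 8.53e-11). The first of these calls was lost without control library 3 (0.13, FDR 0.0697) and with total library size (0.10, FDR 0.122).

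*Cebpb* had 89.1, 55.2 and 93.4 FPKM in LPS + TBHQ, where library 2 stood close to control. With PIC + TBHQ it had 122, 104 and 128 FPKM, above every library of the other 5 conditions. The log2 difference was −0.07 against LPS (SE 0.25, FDR 0.752), and without LPS + TBHQ library 2 it was 0.13 (FDR 0.482), so that no direction could be read. Against PIC the gene rose by 0.57 (SE 0.24, FDR 0.000577), or by 0.36 (FDR 0.0174) without PIC library 3. *Cebpb* was higher than control by 0.65 in LPS + TBHQ (SE 0.25, FDR 0.000114), or 0.86 (FDR 1.6e-07) without library 2 of that group, and by 1.23 in PIC + TBHQ (SE 0.10, FDR 5.09e-10), or 2.35-fold.

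*Cebpd* had 21.3, 19.8 and 20.4 FPKM in LPS + TBHQ, inside the range of LPS alone. PIC + TBHQ gave 20.3, 16.5 and 19.7 FPKM, above every PIC library. The log2 difference against LPS was 0.09 (SE 0.11, FDR 0.352), which was called without LPS library 3 (0.19, FDR 0.0295) but went down to 0.0060 with another library left out. Against PIC *Cebpd* rose by 0.36 (SE 0.09, FDR 6.2e-05). Against control it rose by 1.08 in LPS + TBHQ (SE 0.03, FDR 2.34e-15) and by 0.96 in PIC + TBHQ (SE 0.09, FDR 4.38e-14).

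*Spi1* had 135, 135 and 138 FPKM in LPS + TBHQ and 160.1, 149 and 157 FPKM in PIC + TBHQ. The first group lay below every LPS library, and the second overlapped PIC. *Spi1* fell by 0.16 against LPS (SE 0.06, FDR 0.00624), a call lost without LPS library 3 (−0.09, FDR 0.118). Its difference against PIC was 0.01 (SE 0.04, FDR 0.894). Against control it was −0.04 in LPS + TBHQ (SE 0.02, FDR 0.504) and, called, 0.16 in PIC + TBHQ (SE 0.04, FDR 0.00206), but −0.10 (FDR 0.0434) and 0.01 (FDR 0.866) with total library size. LPS + TBHQ overlapped control in deposited FPKM and lay below it in recomputed FPKM (135.4 to 138.0, with 141.3 to 149.3 in control), while PIC + TBHQ lay above control in deposited FPKM and overlapped it when recomputed (141.6 to 151.7).

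*Runx1* had 3.67, 3.28 and 3.32 FPKM in LPS + TBHQ and 4.19, 3.87 and 3.65 FPKM in PIC + TBHQ. The LPS + TBHQ libraries were below every LPS library, and the PIC + TBHQ libraries overlapped PIC. Neither difference was called, at −0.15 against LPS (SE 0.05, FDR 0.0668) and −0.13 against PIC (SE 0.07, FDR 0.0897). Both were called with a filter at a mean of 50 counts (FDR 0.0465 and 0.0421), the first also without LPS + TBHQ library 1 (−0.20, FDR 0.0251) and the second without PIC library 3 (−0.17, FDR 0.049) or PIC + TBHQ library 1 (−0.19, FDR 0.0267). Against control it was 0.00 in LPS + TBHQ (SE 0.05, FDR 0.985) and rose by 0.19 in PIC + TBHQ (SE 0.06, FDR 0.00573), a call lost without PIC + TBHQ library 1 (0.14, FDR 0.075) and with total library size (0.05, FDR 0.529). PIC + TBHQ lay above control in deposited FPKM and overlapped it in recomputed FPKM (3.47 to 3.97, with 3.54 to 3.65 in control).

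The combined treatments against control gave 3 of 7 members higher and 1 lower in LPS + TBHQ, beside 21.2% and 22.5% of all genes. PIC + TBHQ gave 5 members higher and 2 lower, beside 26.4% and 26.0%. *Cebpb*, *Cebpd*, *Mitf* and *Csf1r* were called in both combinations. Over all genes there were 2896 higher and 3087 lower calls for LPS + TBHQ, or 2281 and 4034 with total library size, and 3615 and 3563 for PIC + TBHQ, or 2364 and 5515.

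PIC and LPS were also compared directly, which asks whether the stimuli differ. *Mitf* and *Runx1* were higher with PIC, and *Cebpd* and *Csf1r* lower, which makes 2 of 7 members higher against 14.9% of all genes and 2 lower against 12.8%. All genes gave 2035 higher and 1752 lower calls, or 985 and 4373 with total library size. *Mitf* differed by 0.32 on the log2 scale (SE 0.06, FDR 5e-06) and *Cebpd* by −0.39 (SE 0.11, FDR 2.97e-05), and neither pair of groups overlapped. *Runx1* differed by 0.17 (SE 0.04, FDR 0.0241) and *Csf1r* by −0.10 (SE 0.06, FDR 0.0448), and whether their libraries overlapped depended on the scaling. *Cebpa* libraries overlapped in deposited FPKM and lay apart when recomputed, at most 1.250 in PIC and at least 1.262 in LPS. The values not called were 0.03 for *Spi1* (FDR 0.645), −0.35 for *Cebpa* (FDR 0.194, from −0.46 to −0.18 with single libraries left out) and −0.06 for *Cebpb* (FDR 0.767, or 0.14 with FDR 0.443 without PIC library 3).

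The *Runx1* call between the stimuli was lost without LPS library 2 (0.17, FDR 0.0614), LPS library 3 (0.17, FDR 0.0562) or PIC library 1 (0.14, FDR 0.114), with no filter on low counts (FDR 0.0529) and with total library size (0.04, FDR 0.583), where *Cebpa* was called lower (−0.47, FDR 0.0473), *Mitf* differed by 0.19 (FDR 0.00291) and *Csf1r* by −0.23 (FDR 5.77e-06). The *Csf1r* call was lost without LPS library 1 (−0.09, FDR 0.143), LPS library 3 (−0.08, FDR 0.17), PIC library 1 (−0.09, FDR 0.143), PIC library 2 (−0.06, FDR 0.314) or TBHQ library 2 (−0.10, FDR 0.0527), and in DESeq2 (FDR 0.0655), under RLE scaling (FDR 0.077), with the 2 conditions alone (FDR 0.102) and in limma (FDR 0.111).

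After TBHQ, PIC gave higher *Spi1*, *Cebpb*, *Mitf* and *Runx1* and lower *Cebpa* than LPS did. That is 4 of 7 members higher in PIC + TBHQ against LPS + TBHQ, beside 11.9% of all genes, and 1 lower, beside 8.39%. Over all genes there were 1623 higher and 1149 lower calls, or 890 and 2582 with total library size. *Cebpb* differed by 0.58 (SE 0.26, FDR 0.000657), or 0.38 (FDR 0.0162) without LPS + TBHQ library 2. *Mitf* differed by 0.36 (SE 0.04, FDR 1.01e-06) and *Spi1* by 0.20 (SE 0.03, FDR 0.000667), both without overlap, although *Spi1* differed by 0.11 (FDR 0.0458) with total library size. *Cebpd*, at −0.12 (SE 0.10, FDR 0.232), and *Csf1r*, at −0.04 (SE 0.04, FDR 0.562), were not called, but in that scaling they were called at −0.20 (FDR 0.0178) and −0.12 (FDR 0.011). With single libraries left out they ran from −0.18 to −0.036 and from −0.063 to −0.0084. *Cebpd* libraries overlapped in deposited FPKM and lay apart when recomputed, at most 19.22 in PIC + TBHQ and at least 19.996 in LPS + TBHQ.

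*Runx1* (0.19, SE 0.08, FDR 0.016) and *Cebpa* (−0.45, SE 0.18, FDR 0.0339) overlapped between PIC + TBHQ and LPS + TBHQ, although *Cebpa* did not in recomputed FPKM (1.78 to 2.34 and 2.35 to 3.27). The *Cebpa* call was lost without LPS + TBHQ library 1 (−0.43, FDR 0.0875) or 3 (−0.33, FDR 0.192) and PIC + TBHQ library 1 (−0.38, FDR 0.144) or 3 (−0.40, FDR 0.119), in DESeq2 (FDR 0.0607) and in limma (FDR 0.0527 and 0.0759). The *Runx1* call was lost without LPS + TBHQ library 2 (0.16, FDR 0.0979) or 3 (0.17, FDR 0.0732) and PIC + TBHQ library 1 (0.14, FDR 0.167), with total library size (0.11, FDR 0.19), with no filter on low counts (FDR 0.0649) and without both libraries in which *Cebpb* stood apart (0.15, FDR 0.13).

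Whether TBHQ acted differently under PIC than under LPS was tested as a difference of differences. By edgeR 0 of 7 members were called higher and 0 lower, beside 0.825% and 1.01% of all genes, while 3 members had an unadjusted p under 0.05, all with higher values under PIC. DESeq2 and limma called 0 as well, and with a replicate block *Cebpb* was called (0.64, FDR 0.0344). *Cebpb* came nearest, at 0.64 (SE 0.35, FDR 0.0573), followed by *Cebpd* at 0.27 (SE 0.15, FDR 0.143) and *Spi1* at 0.17 (SE 0.07, FDR 0.17). *Cebpa* (−0.10), *Csf1r* (0.06), *Mitf* (0.04) and *Runx1* (0.02) had FDR of 0.651 or more. All genes gave 113 higher and 138 lower calls, or 235 and 74 with total library size, where *Cebpb* (0.69, FDR 0.0306) and *Spi1* (0.21, FDR 0.0491) were called.

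The value of *Cebpb* in that test rested on PIC library 3 and LPS + TBHQ library 2. It was 0.43 (FDR 0.172) without the first, 0.44 (FDR 0.178) without the second and 0.23 (FDR 0.378) without both. It was called without LPS library 2 (0.69, FDR 0.0416), PIC library 1 (0.73, FDR 0.0404), PIC library 2 (0.75, FDR 0.0265), LPS + TBHQ library 1 (0.73, FDR 0.0465), LPS + TBHQ library 3 (0.78, FDR 0.0215) or PIC + TBHQ library 2 (0.72, FDR 0.0393). *Cebpd* was called without LPS library 2 (0.34, FDR 0.0282) or PIC + TBHQ library 2 (0.35, FDR 0.0353), and without LPS library 3 it was 0.16 (FDR 0.487). *Spi1* ran from 0.087 to 0.19 with single libraries left out, and *Csf1r* from 0.011 to 0.097.

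Since C/EBP proteins share a binding motif, the balance of their transcripts was also taken within each library. The ratio of *Cebpb* to *Cebpa* FPKM was 15.7 ± 1.89 (SD, n = 3) in control and 12.0 ± 1.87 in TBHQ, with no overlap. It was 56.4 ± 8.69 in LPS and 27.6 ± 3.50 in LPS + TBHQ, with every LPS + TBHQ library below every LPS library and above every control library. PIC gave 72.4 ± 31.0 and PIC + TBHQ 57.9 ± 13.4, and these overlapped. *Cebpa* made up 5.11% of the summed FPKM of the 3 C/EBP members in control, 1.44% in LPS, 1.27% in PIC, 6.41% in TBHQ, 2.79% in LPS + TBHQ and 1.53% in PIC + TBHQ. These are ratios of transcripts, and protein was not measured.

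**Figure D3:**
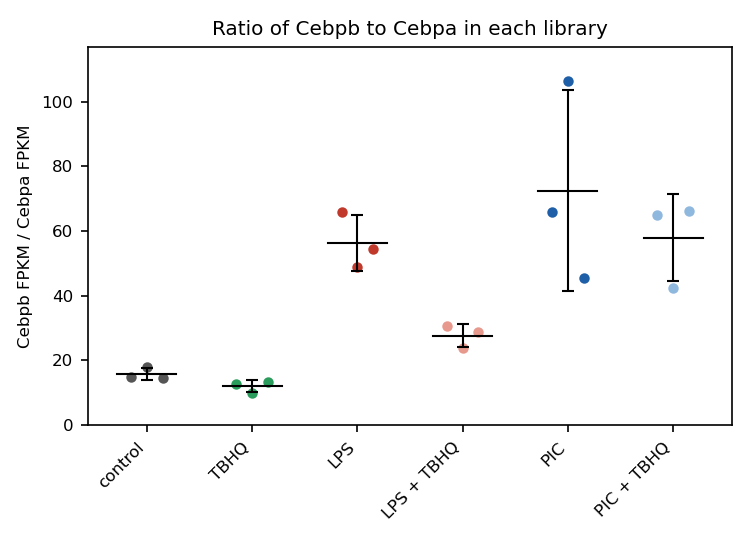
Ratio of *Cebpb* to *Cebpa* transcript level (FPKM over FPKM) in each of the 18 libraries, with the mean ± SD of each condition (n = 3). Control and TBHQ libraries lie between 9.84 and 17.9, LPS libraries between 48.7 and 65.8, and PIC libraries between 45.3 and 106.

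Over conditions, *Csf1r* levels ran from TBHQ to control, then to both combined treatments, then to LPS and PIC, and within the last 2 pairs the libraries overlapped in deposited FPKM only. In recomputed FPKM they were 117.6 to 123.4 in LPS + TBHQ and 106.5 to 114.6 in PIC + TBHQ. *Cebpa* also had its highest level with TBHQ and its lowest with LPS and PIC. *Cebpb* was highest in PIC + TBHQ and lowest in control, and *Cebpd* and *Mitf* were lowest in control as well. Across the 18 libraries, *Cebpa* and *Csf1r* had a Pearson correlation of 0.94 on log2 counts scaled to library size, and *Mitf* and *Runx1* one of 0.86. The libraries share 6 conditions of 3 replicates each, so these values mainly describe differences between conditions and carry no test.

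Among 9571 genes with a mean of at least 100 counts, those whose pattern over the 18 libraries was most like each member were found by Pearson correlation. *Csf1r* was most like *Fads2* (0.990), a fatty acid desaturase, *Mlec* (0.990), a lectin of the endoplasmic reticulum, and *Aldh9a1* (0.989), an aldehyde dehydrogenase. *Cebpa* was most like *Nol6* (0.980) and *Polr1b* (0.971), both of ribosomal RNA synthesis, and the taurine transporter *Slc6a6* (0.963). *Cebpb* came closest to *Mau2* (0.865), *Ccdc71l* (0.849) and *Chmp7* (0.827), and *Cebpd* to *Stab1* (0.936), *Por* (0.930) and *Psmd5* (0.913). *Mitf* was closest to *Brd2* (0.949), *Rnf145* (0.929) and *Snx4* (0.926), *Runx1* to *Lats1* (0.868), *Paf1* (0.864) and *Mitf* (0.862), and *Spi1* to *Pfn1* (0.879), *Triobp* (0.875) and *Polr1d* (0.854). The neighbors depended on the measure. Among the first 3 by Spearman correlation only *Nol6*, *Ccdc71l*, *Brd2* and *Pfn1* stayed, and for *Csf1r*, *Cebpd* and *Runx1* none did.

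The 7 members lie on 5 mouse chromosomes in the positions of the deposited files, for which the study named the builds GRCm38 and mm39 side by side. These are not GRCm38 positions. On GRCm38.p6 the upstream window of *Cebpb* ends at 167688914 and that of *Cebpa* at 35119292, both beyond the deposited ends of these genes. The deposited positions can therefore not be set beside the GRCm38.p6 windows given below. *Cebpb* (ENSMUSG00000056501, chromosome 2, 167530835 to 167532338) and *Spi1* (ENSMUSG00000002111, chromosome 2, 90912735 to 90946101) share a chromosome, as do *Cebpd* (ENSMUSG00000071637, chromosome 16, 15705150 to 15708895) and *Runx1* (ENSMUSG00000022952, chromosome 16, 92398354 to 92623037). *Cebpa* (ENSMUSG00000034957) spans 34818718 to 34821353 on chromosome 7, *Mitf* (ENSMUSG00000035158) 97784013 to 97998310 on chromosome 6, and *Csf1r* (ENSMUSG00000024621) 61233670 to 61265221 on chromosome 18. *Cebpb* overlaps *Peds1* on the other strand (a mean of 2363 counts), *Cebpd* overlaps *Spidr* (742 counts) and *Csf1r* overlaps *Hmgxb3* (954 counts). The library preparation was described both as directional and as non-directional and the strand setting of the counting was not given, and the part of these neighbors in the members' counts was not tested.

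The genes around the 7 members were described by 10 lists of ligands, partners and known targets, 100 genes tested in all and none in more than 1 list. The all-gene median was −0.015 or nearer to 0 in each comparison. For the counts, LPS raised 24.0% of all genes and lowered 24.1%, and PIC raised 28.6% and lowered 30.1%. Of 9 listed ligands and growth factor receptors, 5 were tested, namely *Csf1* and 4 cytokine receptor genes (*Csf2ra*, *Csf2rb*, *Csf2rb2* and *Csf3r*), and 4 rose and 0 fell with LPS (median 0.44) and with PIC (median 0.51). The ligand gene *Csf1* rose by 0.75 with LPS (FDR 3.53e-05) and by 1.42 with PIC (FDR 2.08e-11), opposite to *Csf1r*, and fell by 1.29 in LPS + TBHQ against LPS (FDR 1.34e-08). The other ligand gene, *Il34*, had between 0 and 9 counts per library and was not tested. Of 15 genes of CSF1R shedding, adaptors and turnover, 4 rose and 8 fell with LPS and 4 rose and 7 fell with PIC, with the kinase gene *Src* rising by 1.22 and 2.29.

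Of 8 tested genes of other C/EBP proteins and regulators, 3 rose and 2 fell with LPS, and 3 rose and 2 fell with PIC, or 0 and 2 with total library size. *Ddit3*, whose product CHOP binds other C/EBP proteins, rose by 0.58 with LPS (FDR 1.2e-13) and by 0.15 with PIC (FDR 0.00521), the latter less than the all-gene shift of −0.22 under total library size. Of 11 tested ETS factors and PU.1 partners, 5 rose and 4 fell with LPS, and 5 rose and 2 fell with PIC (5 and 5 with total library size), among them *Ets2* (0.70), *Id2* (0.85) and *Fli1* (−0.92). Of 4 tested RUNX and core binding factor partners, 1 rose and 1 fell with each stimulus, which is close to the share of all genes. *Cbfb*, which encodes the partner subunit of RUNX1, fell by 0.66 with LPS (FDR 6.16e-16) and by 0.74 with PIC (FDR 1.35e-17), while the kinase gene *Hipk2* rose by 0.64 (FDR 5.54e-14) and 1.11 (FDR 2.32e-21). Of 8 genes of the MiT family, to which *Mitf* belongs, and its regulators, 3 rose and 2 fell with LPS and 5 rose and 2 fell with PIC, with *Tfec* at 1.23 and *Tfeb* at −1.12 with PIC.

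Of 12 tested other macrophage lineage factors, 3 rose and 3 fell with LPS, at the share of all genes, and 7 rose and 3 fell with PIC, with *Myc* at 1.95 and 1.69. Among 12 tested osteoclast genes known as MITF and PU.1 targets, 0 rose and 9 fell with TBHQ (median −0.30, beside 14.8% of all genes lower). The whole set of 100 listed genes also leaned lower with TBHQ, with 24 higher and 41 lower calls. Of the osteoclast genes, 3 rose and 5 fell with LPS and 4 rose and 7 fell with PIC, with *Mmp9* at 2.56 and 2.93. For TBHQ alone the study's own table lists *Mmp9* as higher than control, whereas it was not called higher here. Of 15 macrophage genes known as PU.1 targets, 10 rose and 3 fell with LPS (median 0.36) and 10 rose and 4 fell with PIC (median 0.50), with *Adgre1* at 1.45 and 1.86. Of 10 tested acute inflammatory genes known as C/EBPβ and C/EBPδ targets, all 10 rose with LPS (median 2.83) and with PIC (median 3.47), and 9 fell in each combined treatment against its stimulus alone (medians −0.71 and −0.85, beside 12.2% and 15.5% of all genes lower). In the latter comparisons *Il6* fell by 1.34 and 1.85. *Il1b* was at −3.00 and −3.19 there. Its fitted rises with LPS (9.88) and PIC (11.39) were the widest of the list. With control taken at a floor of 3 counts per library, they were at least 8.84 and 10.35.

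The 250 bases upstream of the annotated starts of *Mitf* and *Runx1* are shown, from RefSeq on build GRCm38.p6, in the direction of transcription. Both were called higher with PIC, as were *Cebpb*, *Cebpd* and *Spi1*. The *Runx1* and *Spi1* calls were lost with total library size. The table held 7 upstream windows for 4 of the 7 members (*Cebpa*, *Cebpb*, *Mitf* and *Runx1*), and had no entry for *Spi1*, *Cebpd* and *Csf1r*. Both strands were searched for TTGCNNAA (C/EBP, in 9.56% of 32851 windows of the same length), GAGGAAGT (PU.1, 2.44%), TGNGGT (RUNX, 40.1%), CACGTG (E-box, as bound by MITF, 6.02%), TGACGTCA (CRE, 1.55%), GGNNTTTCC (part of the κB consensus, 4.93%) and TTCNNNGAA (STAT, 7.02%). Capitals mark the matches, and a match is a run of letters, with no binding measured. The first *Mitf* window (chr6:97806808-97807057, plus strand) holds 1 C/EBP and 1 RUNX match, the second (chr6:97929567-97929816, plus strand) 1 match to the κB part and the third (chr6:97991533-97991782, plus strand) 1 CRE match. The first *Runx1* window (chr16:92697330-92697579, minus strand) holds 1 match to the κB part and the second (chr16:92826075-92826324, minus strand) 1 E-box match. The single windows of *Cebpa* and *Cebpb* hold none of these letters.
Mitf window 1: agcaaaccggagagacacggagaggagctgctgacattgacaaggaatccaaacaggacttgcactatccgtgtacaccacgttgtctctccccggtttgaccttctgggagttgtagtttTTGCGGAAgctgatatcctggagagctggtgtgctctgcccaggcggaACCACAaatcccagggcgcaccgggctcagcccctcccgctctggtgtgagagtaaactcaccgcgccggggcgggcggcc
Mitf window 2: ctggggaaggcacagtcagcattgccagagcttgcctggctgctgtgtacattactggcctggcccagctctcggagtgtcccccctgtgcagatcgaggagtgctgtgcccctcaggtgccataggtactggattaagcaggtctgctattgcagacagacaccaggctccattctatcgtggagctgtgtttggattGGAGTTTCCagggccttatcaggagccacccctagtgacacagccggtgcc
Mitf window 3: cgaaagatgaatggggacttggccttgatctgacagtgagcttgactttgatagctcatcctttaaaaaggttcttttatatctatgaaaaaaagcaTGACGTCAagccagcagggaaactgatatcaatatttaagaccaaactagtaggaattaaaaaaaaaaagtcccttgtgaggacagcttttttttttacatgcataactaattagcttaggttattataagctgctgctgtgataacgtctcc
Runx1 window 1: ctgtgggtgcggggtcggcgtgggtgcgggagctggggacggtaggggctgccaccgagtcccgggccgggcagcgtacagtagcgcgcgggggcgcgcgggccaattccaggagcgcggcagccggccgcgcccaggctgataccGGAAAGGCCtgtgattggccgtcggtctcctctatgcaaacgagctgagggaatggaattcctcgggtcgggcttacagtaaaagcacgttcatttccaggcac
Runx1 window 2: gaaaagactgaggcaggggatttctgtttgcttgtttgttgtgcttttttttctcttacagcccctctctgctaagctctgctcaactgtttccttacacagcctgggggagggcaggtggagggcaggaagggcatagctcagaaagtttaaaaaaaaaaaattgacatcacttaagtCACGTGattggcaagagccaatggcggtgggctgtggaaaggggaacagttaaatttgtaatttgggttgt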

How the data were processed

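RNA of 18 RAW 264.7 libraries was analysed from the gene table of the study. According to the processing notes, the sequencing company aligned reads with HISAT2 2.0.5 and assembled with StringTie 1.3.3b, and the deposited counts were made with featureCounts 1.5.0-p3. The deposited FPKM values were made by the company from counts and gene lengths, and they equal counts scaled to gene length and library total times a constant per library between 0.943 and 1.12, which recomputed FPKM leave out. Counts were filtered with filterByExpr, scaled by TMM and fitted with the quasi-likelihood model of edgeR 4.0.16 in R 4.3.3, with 1 coefficient for each of 6 conditions and no pairing of replicates. The FDR is that of Benjamini and Hochberg over 13691 genes, and calls were made below 0.05. The SE combines the replicate spread of log2 counts scaled to library size (prior count 2). Levels are deposited FPKM.

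Alternatives were DESeq2 1.42.0, RLE scaling, total library size, no filter or a mean of at least 50 counts, the compared conditions alone, a replicate block, limma 3.58.1 on log2(FPKM + 1) or log2(FPKM + 0.1) of genes with a mean of at least 1 FPKM, FDR below 0.01 with and without a log2 difference above 2, and each library left out. The fit was tested on simulated data without outlying libraries, so that this check does not cover the spread of *Cebpb*. All 7 members were named. From each list 1 or more genes were named out of the 3 with the largest called difference and a mean of at least 50 counts, for either stimulus against control or TBHQ before a stimulus. *Il34* was named as a ligand. Members and lists were chosen with earlier results of these data known. Tables, correlations, motif searches and plots used Python 3.11.15 with pandas 2.3.3, numpy 2.4.6 and matplotlib 3.10.9.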

Additional observations from a re-analysis of the deposited data

How the results depend on the processing

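Outside the 2 stricter thresholds, 10 alternatives gave 700 member values, of which 655 kept their direction and call, 23 lost the call, 10 gained it and 12 changed sign. The 10 include the unplanned omission of PIC library 3 and LPS + TBHQ library 2 together. FDR below 0.01 with a log2 difference above 2 left 0 members in every comparison, as the widest difference was −1.46. FDR below 0.01 alone gave 3 higher for LPS against control, 1 higher and 1 lower for PIC against LPS and 0 lower for PIC + TBHQ against LPS + TBHQ.

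With total library size, 3 members were higher in LPS, PIC and PIC + TBHQ against control, 2 lower in LPS + TBHQ against control, 1 higher in PIC against LPS, 3 lower in PIC + TBHQ against LPS + TBHQ and 2 higher in the difference of TBHQ effects. There *Spi1* was −0.069 in PIC against control and −0.10 in PIC against LPS, and *Runx1* −0.061 in LPS + TBHQ against control, as the all-gene shift moves values near 0. *Spi1* in PIC + TBHQ against PIC was −0.0030 in DESeq2, −0.0059 with RLE, −0.0092 with a mean of 50 counts, −0.0020 in both limma fits and −0.020 with 2 libraries left out. A mean of 50 counts gave 2 lower in PIC + TBHQ against PIC. DESeq2, RLE, the compared conditions alone and limma gave 1 lower in PIC against LPS, and DESeq2 and limma 0 lower in PIC + TBHQ against LPS + TBHQ. The cause was not tested.

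Without a filter, 1 member was higher in PIC against LPS and 1 in the difference of TBHQ effects. The latter is *Cebpb* (0.63, FDR 1.63e-18): with 27701 genes its own variance of 15.05 was replaced by a common 0.766, against 6.03 in the filtered fit, so this FDR follows from that alternative's construction.

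A replicate block, which pairs libraries by number, changed 1 of 70 member calls, giving 1 higher in the difference of TBHQ effects (*Cebpb*, 0.64, FDR 0.0344). Of 18 libraries, 10 were most like those of their own number, and deviations of the 45 same-number pairs correlated between −0.08 and 0.17 (median 0.036), against −0.18 to 0.13 (median −0.019) for 90 other pairs.

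Leaving out PIC library 3 and LPS + TBHQ library 2 together was chosen after seeing the data. *Cebpb* was then 0.13 in LPS + TBHQ against LPS and 0.14 in PIC against LPS, and *Runx1* −0.054 in the difference of TBHQ effects.

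With 1 library left out at a time, members lower ranged from 1 to 3 in LPS + TBHQ against LPS, 1 to 2 in PIC + TBHQ against PIC and 0 to 1 in PIC + TBHQ against LPS + TBHQ. In PIC against LPS higher and lower each ranged from 1 to 2, and 0 to 2 were higher in the difference of TBHQ effects. *Spi1* ranged from −0.044 to 0.033 with TBHQ, −0.019 to 0.033 in PIC + TBHQ against PIC and −9.6e-05 to 0.10 in PIC against LPS. *Runx1* ranged from −0.050 to 0.032 in LPS + TBHQ against control, and *Cebpb* from −0.21 to 0.13 in LPS + TBHQ against LPS and −0.18 to 0.14 in PIC against LPS. In the difference of TBHQ effects *Cebpa* ranged from −0.28 to 0.015, *Mitf* from −0.017 to 0.088 and *Runx1* from −0.038 to 0.071. Depth limits *Cebpa* most, at 32 to 288 counts.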
